A study of Mus musculus with 6 samples.

Results

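The genes described here encode the subunits of the transcription factor NF-κB and the IκB proteins that bind them. They are Rela, Relb, Rel, Nfkb1 and Nfkb2 among the subunits and Nfkbia, Nfkbib, Nfkbie, Nfkbiz and Bcl3 among the IκB family, 10 genes chosen by name. Of these, 9 were measured, each by 1 row of the array table that carries its symbol alone, out of 19938 genes in all. Nfkb1, which encodes the p105 precursor of p50, was not analysed here. Bone marrow labelled p65 wild-type gave the cells of 3 arrays, and bone marrow labelled p65 knockout gave those of 3 more. The titles number the arrays within each group and do not say whether each array came from 1 mouse. The cells of both groups were sorted in the same way, as lineage-negative, Flk2-negative, c-kit-positive and Sca-1-positive, a gate that holds hematopoietic stem cells and early progenitors. The series title places the deletion of p65 in the hematopoietic compartment. No source used here gives the allele, the driver of the deletion or the age of the mice. Values are log2 signals as deposited, so a difference of 1 stands for a doubling.

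NF-κB acts as a dimer of Rel proteins. RelA (p65), RelB and c-Rel carry a transactivation domain, while p50 and p52 are cut from the precursors p105 and p100, the products of Nfkb1 and Nfkb2. In resting cells IκBα (Nfkbia), IκBβ (Nfkbib) and IκBε (Nfkbie) hold dimers inactive, mostly in the cytoplasm, until IκB kinase marks them for degradation. Nfkbia and Nfkb2 are textbook targets of the factor itself, and newly made IκBα closes a negative feedback loop. IκBζ (Nfkbiz) and Bcl-3 are IκB family members of the nucleus that bind p50 or p52 homodimers and modulate transcription.

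Promoter sequences are shown first for the IκB genes whose signals differed most between genotypes, in opposite directions, Nfkbia and Nfkbib, because κB sites near the start are how NF-κB is known to drive its own inhibitor. RefSeq windows on GRCm38.p6, from 250 bases before to 50 after an annotated start, were found for 7 of the 9 genes, all but Relb and Nfkbiz. Each was searched on both strands for the NF-κB (κB) consensus of 10 bases, and overlapping matches were counted as 1. Capitals mark a match, and lines run 5′ to 3′ on the strand of the gene, which is the minus strand for both. The 250 bases before the start of Nfkbia (chr12:55492648-55492897) hold 1 match close to the start, and those of Nfkbib (chr7:28766645-28766894) hold none.
Nfkbia: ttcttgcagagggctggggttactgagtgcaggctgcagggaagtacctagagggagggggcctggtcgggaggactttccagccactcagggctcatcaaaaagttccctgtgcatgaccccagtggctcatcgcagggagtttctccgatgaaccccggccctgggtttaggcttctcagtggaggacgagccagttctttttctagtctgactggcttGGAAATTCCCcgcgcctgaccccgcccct
Nfkbib: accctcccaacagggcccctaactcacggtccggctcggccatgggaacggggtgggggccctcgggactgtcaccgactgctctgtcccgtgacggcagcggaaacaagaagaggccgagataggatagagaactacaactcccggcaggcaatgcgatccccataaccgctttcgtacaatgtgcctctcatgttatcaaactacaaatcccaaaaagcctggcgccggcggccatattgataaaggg

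Matches were also found in the windows of Rel, Nfkb2 and Bcl3, and none in those of Rela and Nfkbie. The stretches of 30 bases around them are shown to compare the matched letters between genes. The Rel stretch (chr11:23771042-23771071, minus strand) holds 2 overlapping matches in 1 run of capitals. The Nfkb2 stretches lie at chr19:46304688-46304717, chr19:46304716-46304745 and chr19:46305695-46305724 on the plus strand, and that of Bcl3 at chr7:19822734-19822763 on the minus strand, just past the start.
Rel: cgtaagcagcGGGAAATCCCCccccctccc
Nfkb2, upstream start, farther match: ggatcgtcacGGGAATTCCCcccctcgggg
Nfkb2, upstream start, nearer match: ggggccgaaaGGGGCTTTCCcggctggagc
Nfkb2, downstream starts: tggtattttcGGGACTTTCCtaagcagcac
Bcl3: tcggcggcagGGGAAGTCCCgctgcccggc

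In all, 4 of the 7 genes with a window held a match, as did 7.61% of the 15614 measured genes with a window and 5.8% of all 32851 RefSeq windows of this length. A match describes letters and is not a measured binding site. Of the measured genes, 1188 held a match and 14426 did not. Of those with a match 1.18% passed the test described next, with a median log2 fold change of 0.0021, and of those without one 0.756% passed, with a median of -0.03. Among the subunit and IκB genes, the 4 with a match did not pass, and the gene that passed, Nfkbib, held none in its window.

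Knockout was compared with wild-type by limma over all genes, with Benjamini-Hochberg adjustment and a threshold of 0.05. The comparison asks how the other parts of the NF-κB system stood in cells labelled as lacking p65. Of the 9 measured genes 1 passed, Nfkbib, which was higher in knockout, and 0 were lower. Of all genes 0.818% passed (163 of 19938, 137 higher and 26 lower), and 0.687% passed as higher. A fit blocked on the replicate number called 372 genes (1.87%), and again Nfkbib alone among the 9. The median log2 fold change of the 9 genes was -0.16, beside -0.04 for all genes. The groups did not overlap for 3 of the 9 genes (Nfkbib above, Rela and Relb below). Such a separation was seen for 34.6% of all genes, 19.2% with knockout above and 15.4% with knockout below, so this share is near the background. Before adjustment p was under 0.05 for 2 of the 9, Nfkbib and Rela, and for 21.6% of all genes.

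**Figure D1:**
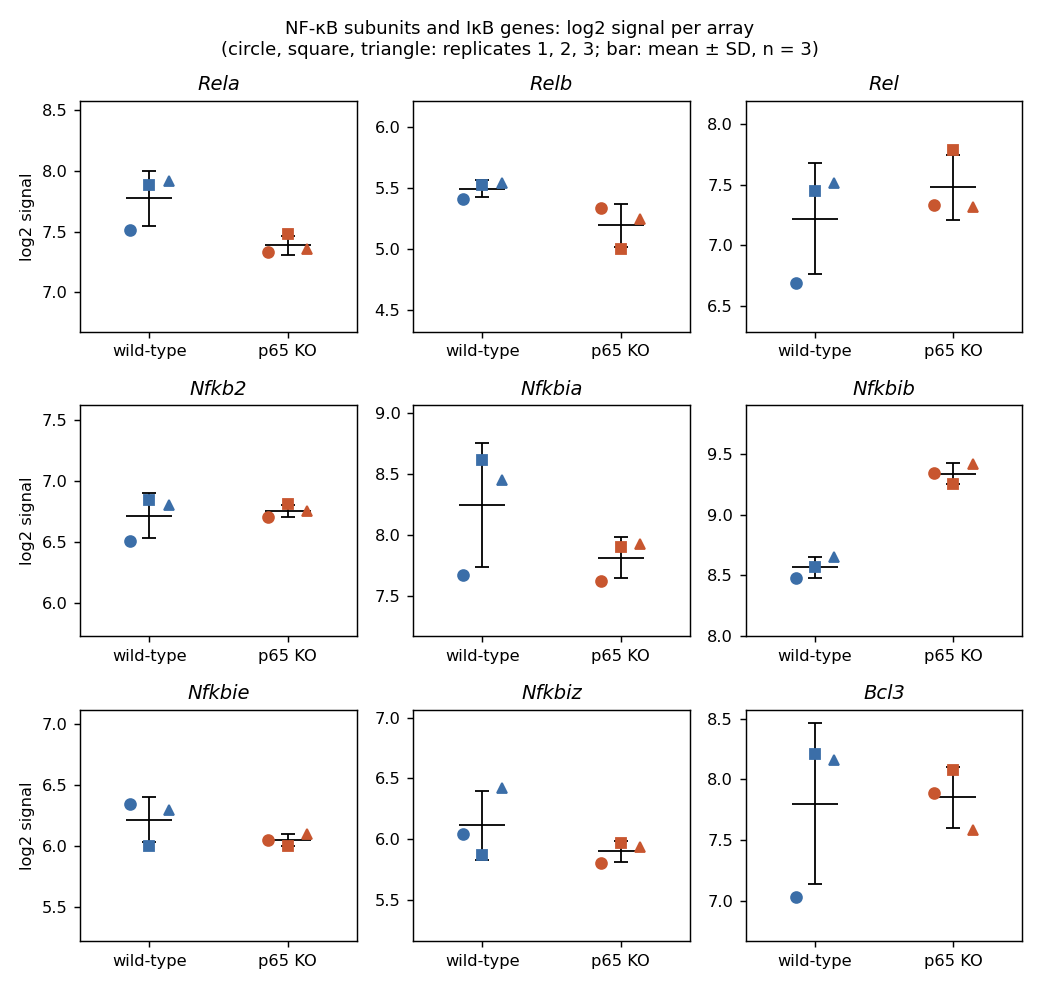
Log2 signal (vertical axes, each spanning the same range of log2 units) of the 9 genes in 3 wild-type (blue) and 3 p65 knockout (orange) arrays; symbols mark replicates 1, 2 and 3, and bars give the mean ± SD. Only the Nfkbib panel shows tight groups with a wide gap, and wild-type replicate 1 (blue circle) lies far below the other wild-type arrays for Rel, Nfkbia and Bcl3.

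The arrays were not alike. Wild-type replicate 1 correlated with the others at r = 0.951 to 0.963 over genes, against 0.982 to 0.994 among the other 5. Its SD over all rows was 2.03, against 2.22 to 2.29. Fold changes also varied with signal. The median log2 fold change was -0.22 in the dimmest of 3 equal groups of genes, -0.09 in the middle one and 0.30 in the brightest, and -0.09, -0.08 and 0.13 without wild-type replicate 1. Kit, the gene of the c-kit receptor of the gate, averaged 10.4 in wild-type and 10.1 in knockout (difference -0.30, limma adjusted p = 0.327). None of 9 measured genes of the gate and of stem and progenitor cells passed limma. Before adjustment p was under 0.05 for 3, beside 21.6% of all genes. Without wild-type replicate 1 Kit (-0.48), Procr (-0.86) and Meis1 (-0.76) fell and Cd48 rose (0.80). Their limma adjusted p were 0.049986, 0.0402, 0.0390 and 0.0185. In that fit 4.66% of all genes passed, and 1.38% passed as lower. Cd48 was 0.97 higher in knockout over all 6 arrays. With the replicate block, where 1.87% of all genes passed, its limma adjusted p was 0.0298. The part of these genes in the results below was not tested. Flt3, which encodes Flk2, averaged 7.61 and 7.67, so its transcript signal was not low in cells sorted as negative for the protein. Ly6a, the Sca-1 gene, was not analysed here. Of 13 measured granulocyte and monocyte genes 5 rose and 0 fell, beside 0.687% higher and 0.130% lower among all genes. The mean signal of these 13 genes was 6.88 to 7.07 in the wild-type arrays and 7.76 to 7.85 in knockout. The 5 are Elane, Ctsg, Prtn3, Csf1r and Mpo, with log2 fold changes of 1.07 to 3.98. The list's median was 0.21, with 8 members positive and 5 negative, and 9 of the 13 lay above the 95th percentile of 1027 olfactory receptor genes (5.66), a guide to background. Among markers of mature cells, S100a8 averaged 7.39 and 7.81, S100a9 7.32 and 6.61, Itgam 6.74 and 6.94, and Lyz2 9.88 and 9.90 in wild-type and knockout. These lay above that level. Ly6g (4.05 and 3.58), Adgre1 (3.72 and 3.68), Camp (5.65 and 5.64) and Ltf (4.01 and 3.71) lay below it. Of 12 B, T and NK cell genes 1 rose (Nkg7) and 0 fell, beside the same 0.687% and 0.130% of all genes. Their median log2 fold change was -0.37, with 3 positive and 9 negative. Before adjustment p was under 0.05 for 6, beside 21.6% of all genes. Only 5 of the 12 lay above the 95th percentile of olfactory receptor genes. Without wild-type replicate 1 Nkg7 rose and Cd3d fell (-0.55, limma adjusted p = 0.0492). The Cd3d means of 4.63 in wild-type and 4.06 in knockout lay below that level. None of 12 stroma and 5 erythroid genes passed limma, and before adjustment p was under 0.05 for 1 and 3 of them. Emcn, placed here in the stroma list, averaged 7.27 in wild-type and 5.79 in knockout. It differed by -1.48 log2 units (limma adjusted p = 0.0896) and fell in the fit with the replicate block (limma adjusted p = 0.0283). Which of the sorted cells carry it was not tested. In sorted bulk cells a change in the mix of cells and a change in RNA per cell cannot be told apart.

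Rela is the targeted gene. Its signal in wild-type replicates 1 to 3 was 7.52, 7.89 and 7.92, and that in knockout replicates 1 to 3 was 7.33, 7.48 and 7.35. Every knockout array lay below every wild-type array, but knockout replicate 2 lay only just below wild-type replicate 1. The means were 7.77 ± 0.22 and 7.39 ± 0.08 (SD, n = 3 each). Its log2 fold change was -0.39 (SE 0.16, 95% interval -0.74 to -0.03) and did not pass (limma adjusted p = 0.209). The signal in knockout was thus 1.31-fold lower, not lost. No source used here says which part of the gene was deleted, and probes outside that part would check nothing. Rela lay in the brightest group of genes, of which 98.0% had a higher fold change.

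Without wild-type replicate 1, Rela fell by 0.51 log2 units (SE 0.10, limma adjusted p = 0.04). Over 16 alternatives its log2 fold change ran from -0.61 to -0.31, with limma adjusted p from 0.0292 to 0.486, and it passed in 3 of them. Those 3 were cyclic loess normalization, array weights and leaving out wild-type replicate 1. The genes most like Rela over the 6 arrays were Pgap6, Maged1 and Nfatc2, with Pearson's r of 0.999, 0.996 and 0.994. None of these passed limma (adjusted p = 0.308, 0.109 and 0.136), and the likeness is a description over 6 arrays that share the low position of wild-type replicate 1.

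Relb encodes RelB, the subunit that pairs with p52 in the alternative pathway. The wild-type signals were 5.41, 5.53 and 5.54, and the knockout signals 5.34, 4.99 and 5.24. The knockout arrays lay below the wild-type arrays without overlap, although wild-type replicate 1 and knockout replicate 1 lay close together. The log2 fold change of -0.30 (SE 0.15, 95% interval -0.63 to 0.03) did not pass (limma adjusted p = 0.263). Without wild-type replicate 1 Relb differed by -0.34 (95% interval -0.64 to -0.04) and did not pass (limma adjusted p = 0.161). Its mean of 5.34 lay below the 95th percentile of olfactory receptor genes, so Relb was not shown to lie above background, while the other 8 genes lay above that level.

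Rel encodes c-Rel, a subunit of lymphoid and myeloid cells. The wild-type signals were 6.69, 7.45 and 7.51, and the knockout signals 7.33, 7.79 and 7.31. The groups overlapped, and the low value of wild-type replicate 1 set the sign of the difference. That difference was 0.26 log2 units (SE 0.25, 95% interval -0.31 to 0.83, limma adjusted p = 0.508). Without wild-type replicate 1 it was -0.0026, with a 95% interval of -0.38 to 0.37.

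Nfkb2 encodes p100, which is both the precursor of p52 and an inhibitor of RelB dimers. Signals of 6.50, 6.84 and 6.80 in wild-type stood beside 6.70, 6.81 and 6.75 in knockout. These were the closest group means of the 9 genes. They differed by 0.04 log2 units (SE 0.15, limma adjusted p = 0.874), and the 95% interval of -0.30 to 0.37 holds changes of either sign. Without wild-type replicate 1 the value was -0.07.

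**Figure D2:**
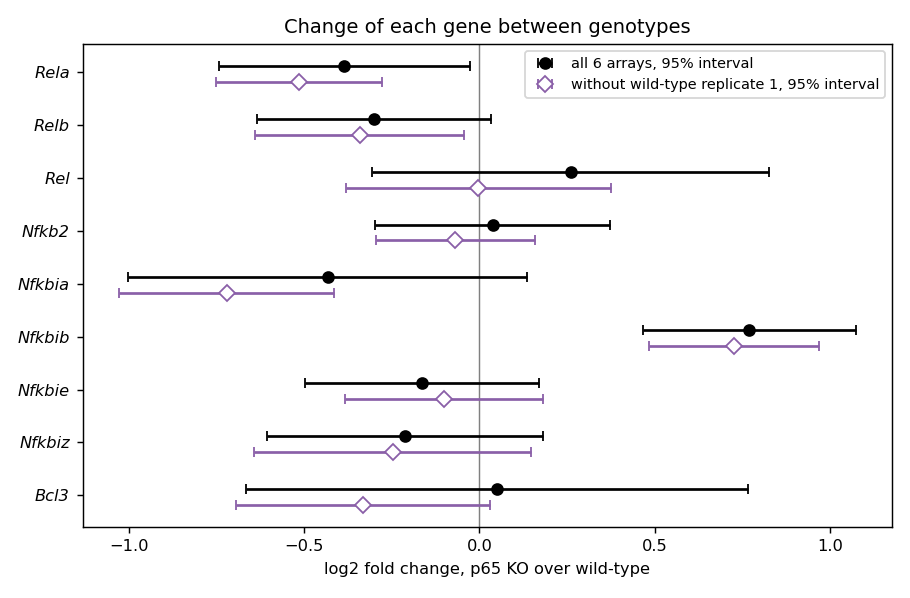
Log2 fold change of knockout over wild-type (horizontal axis) for each gene with its 95% interval from limma, over all 6 arrays (black circles) and without wild-type replicate 1 (open diamonds). The Nfkbib interval of 0.47 to 1.07 stays to the right of 0 in both, and the Rela interval to the left. Those of Relb and Nfkbia leave 0 only without wild-type replicate 1.

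Among the inhibitors, Nfkbib rose. It encodes IκBβ, which is degraded more slowly than IκBα and is known to bind dimers of RelA and c-Rel. In the wild-type arrays its signal was 8.48, 8.57 and 8.65, and in the knockout arrays it was 9.35, 9.25 and 9.42. All 3 knockout arrays lay above all 3 wild-type arrays, with a gap several times the spread within either group. The means were 8.57 ± 0.09 and 9.34 ± 0.08 (SD, n = 3 each). Its log2 fold change was 0.77 (SE 0.13, 95% interval 0.47 to 1.07, limma adjusted p = 0.0476), a 1.71-fold rise. An exact permutation test over the arrays (two-sided) gave p = 0.1, and no smaller p is possible with 3 arrays per group. Same-numbered arrays differed by 0.86, 0.68 and 0.76.

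Nfkbib lay in the brightest group of genes, whose median was higher in knockout. Of the genes in that group 5.18% had a higher fold change, and 3.04% without wild-type replicate 1. Its log2 fold change was 0.51 after quantile normalization and 0.45 after cyclic loess normalization, and neither passed (limma adjusted p = 0.107 and 0.134). Without wild-type replicate 1 it was 0.73 (limma adjusted p = 0.0209). The call was lost on leaving out any other single array, with log2 fold changes of 0.77 and 0.81 without wild-type replicates 2 and 3 and 0.77, 0.81 and 0.73 without knockout replicates 1, 2 and 3. The size of the difference therefore moved little with any 1 array while the call did. The 5 granulocyte and monocyte genes that rose also separated the groups, and their part in the level of Nfkbib was not tested.

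Nfkbia encodes IκBα, the fast inhibitor of the feedback loop. Wild-type signals were 7.67, 8.61 and 8.45, against 7.62, 7.90 and 7.92 in knockout. Wild-type replicate 1 lay among the knockout arrays, and the other wild-type arrays lay above all of them. The means were 8.25 ± 0.51 and 7.81 ± 0.17 (SD, n = 3 each), and the log2 fold change of -0.43 (SE 0.25, 95% interval -1.002 to 0.14) did not pass (limma adjusted p = 0.319). Without wild-type replicate 1 Nfkbia fell by 0.72 log2 units (SE 0.13, limma adjusted p = 0.0334). In that comparison 3 of the 9 genes passed, Nfkbib higher and Rela and Nfkbia lower, beside 4.66% of all genes, and 1.38% of all genes were lower.

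Over 16 alternatives the log2 fold change of Nfkbia ran from -0.72 to -0.25 (limma adjusted p from 0.0285 to 0.534). It passed in 2, with array weights and without wild-type replicate 1. Of the genes in the brightest group 98.3% had a higher fold change than Nfkbia. The genes most like it over the 6 arrays were Fbxl5, Plcb2 and Pdlim7, with Pearson's r of 0.996, 0.992 and 0.992. The log2 signal of Nfkbib minus that of Nfkbia, a comparison chosen after the values were seen and so given with no test, was 0.81, -0.04 and 0.20 in the wild-type arrays. In the knockout arrays it was 1.73, 1.35 and 1.496. Every knockout array lay above every wild-type array in this quantity, by 1.20 on average. The pair holds the highest and the lowest log2 fold change of the measured subunit and IκB genes (0.77 and -0.43). A wide gap therefore follows from the choice of pair and adds nothing to the values of each gene. Over all arrays Nfkbia did not pass (limma adjusted p = 0.319), so a shift in the balance of these transcripts was not shown.

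Nfkbie encodes IκBε, an inhibitor known to act late after stimulation. Wild-type signals were 6.34, 6.00 and 6.30, against 6.05, 6.00 and 6.10 in knockout. The groups overlapped through wild-type replicate 2, and the log2 fold change was -0.16 (SE 0.15, 95% interval -0.50 to 0.17, limma adjusted p = 0.479). The value was negative under all 16 alternatives, from -0.27 to -0.08, and passed in none.

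Nfkbiz encodes the nuclear protein IκBζ. Wild-type signals were 6.04, 5.87 and 6.42, against 5.80, 5.96 and 5.94 in knockout. The groups overlapped, and wild-type replicate 3 was the highest array. The difference was -0.21 (SE 0.17, 95% interval -0.60 to 0.18, limma adjusted p = 0.447). It was -0.06 without wild-type replicate 3 and -0.33 without wild-type replicate 2.

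Bcl3 encodes Bcl-3, which can act as a coactivator with p50 or p52. Wild-type signals were 7.04, 8.21 and 8.16, against 7.89, 8.08 and 7.58 in knockout. Wild-type replicate 1 was the lowest of all arrays, by more than the whole range of the knockouts. This was the widest wild-type spread of the 9 genes (SD 0.66). With all arrays the log2 fold change was 0.05 (SE 0.31, 95% interval -0.67 to 0.77, limma adjusted p = 0.923). It turned to -0.33 without wild-type replicate 1 (95% interval -0.69 to 0.03), where 94.9% of the genes in the brightest group had a higher fold change.

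**Figure D3:**
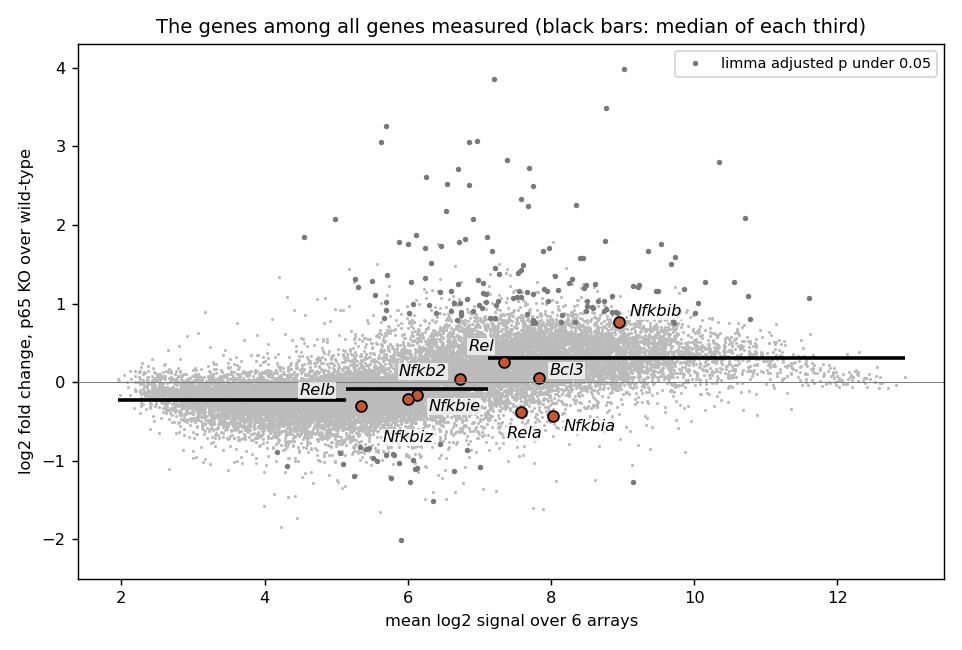
Log2 fold change (vertical axis) against mean log2 signal over 6 arrays (horizontal axis) for all 19938 genes (light points), those that passed limma (dark points) and the 9 named genes (orange). Black bars give the medians of 3 equal groups by signal (-0.22, -0.09 and 0.30). Nfkbib and Nfkb2 lie above the bars of their groups, and the other named genes lie below theirs.

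Ordered by log2 fold change, Nfkbib was followed by Rel (0.26), Bcl3 (0.05), Nfkb2 (0.04), Nfkbie (-0.16), Nfkbiz (-0.21), Relb (-0.30), Rela (-0.39) and Nfkbia (-0.43). The 95% intervals of neighbours overlapped throughout. Only those of Nfkbib and Rela excluded 0.

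**Figure D4:**
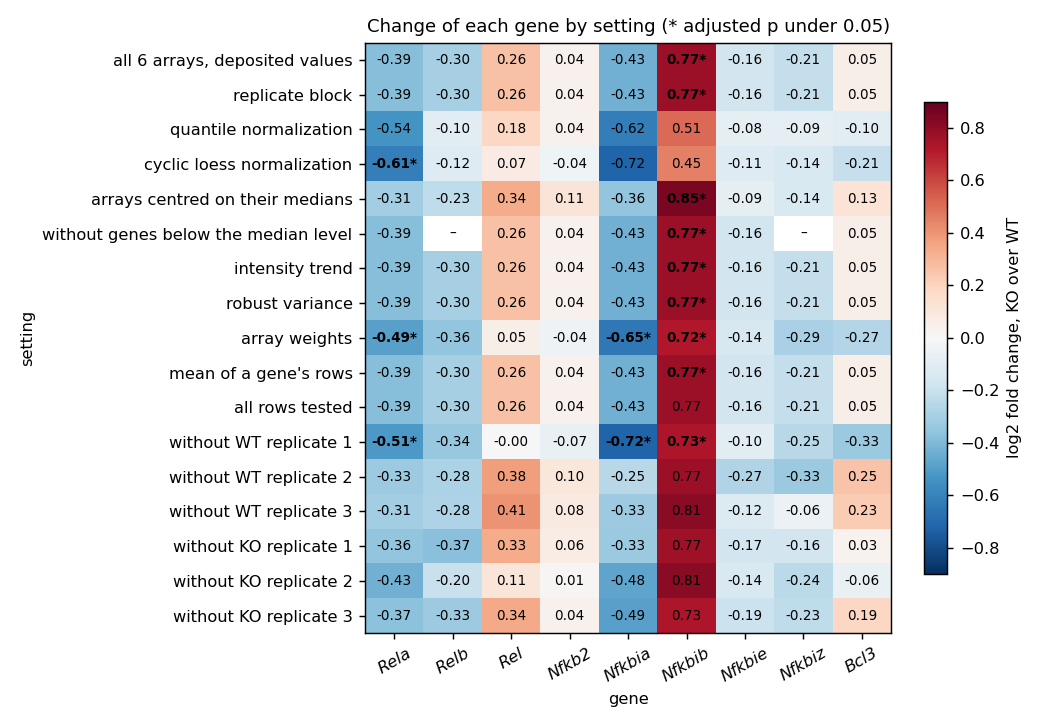
Log2 fold change of each gene (columns) under each setting (rows), coloured from blue (lower in knockout) to red (higher); an asterisk marks a limma adjusted p under 0.05 and a dash a gene left out by the filter on dim genes. The Nfkbib column is positive in every row, from 0.45 to 0.85. The Rela, Relb, Nfkbia, Nfkbie and Nfkbiz columns are negative in every row that holds a value.

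The rest of the pathway was read from lists that were chosen by name, with earlier results of these data known. Of 18 measured genes of the IκB kinases, their activators and the ubiquitin ligase that degrades IκB, none passed limma. Before adjustment p was under 0.05 for 3 of them, beside 21.6% of all genes, and the median log2 fold change was 0.22. The smallest p belonged to Rbx1 and Cul1, parts of that ligase. Its other listed parts differed by 0.31 (Fbxw11), 0.24 (Skp1) and 0.10 (Btrc), with limma adjusted p of 0.225, 0.409 and 0.721. All lay in the brightest group of genes, whose median was 0.30. Rbx1, the RING subunit, had wild-type signals of 9.19, 9.48 and 9.44 against 10.09, 10.01 and 10.03 in knockout. The groups did not overlap, as for 19.2% of all genes with knockout above. The log2 fold change of Rbx1 was 0.68 (SE 0.14, limma adjusted p = 0.071). It rose by 0.59 without wild-type replicate 1 (limma adjusted p = 0.0276), as 1 of 18 to pass, beside 4.66% of all genes. Cul1, the scaffold of the same ligase, differed by 0.52 log2 units (SE 0.19, limma adjusted p = 0.182), and by 0.31 without wild-type replicate 1. The list's median was 0.0086 without wild-type replicate 1.

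Of 10 measured genes of other IκB-like proteins and regulators of NF-κB dimers, none passed limma, with a median of 0.18 (0.07 without wild-type replicate 1). Before adjustment p was under 0.05 for 3, beside 21.6% of all genes. Sirt1, which encodes a deacetylase known to act on RelA, and Nkap were each 0.60 log2 units higher (limma adjusted p = 0.112 and 0.137). Of 10 measured coactivator and corepressor genes none passed limma, and before adjustment p was under 0.05 for 0. Their median was 0.13, and -0.04 without wild-type replicate 1. Hdac3 and Hdac2, genes of histone deacetylases, had the smallest p of that list, with log2 fold changes of 0.42 and 0.30 (limma adjusted p = 0.281 and 0.286), and of 0.23 and 0.17 without wild-type replicate 1.

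Of 39 measured textbook target genes, 1 rose, 0 fell and 38 did not pass, beside 0.687% higher and 0.130% lower among all genes. Before adjustment p was under 0.05 for 9, a share near the 21.6% of all genes. Their median log2 fold change was -0.10, with 14 positive and 25 negative, beside 9143 positive and 10795 negative over all genes. Of the 39, 27 lay above the 95th percentile of olfactory receptor genes. Gadd45b, which encodes a stress protein that restrains JNK signalling, was the gene that rose. Wild-type signals were 6.13, 6.10 and 5.99, against 7.28, 7.65 and 7.04 in knockout, without overlap. Its log2 fold change was 1.25 (SE 0.18, limma adjusted p = 0.0303). This call was lost on leaving out any of the arrays other than wild-type replicate 1. With the replicate block 2 target genes rose, beside 1.87% of all genes called in either direction. The added one was Il6 (limma adjusted p = 0.0248 with the block and 0.087 without). Its wild-type mean of 3.54 and knockout mean of 4.88 both lay below the 95th percentile of olfactory receptor genes.

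**Figure D5:**
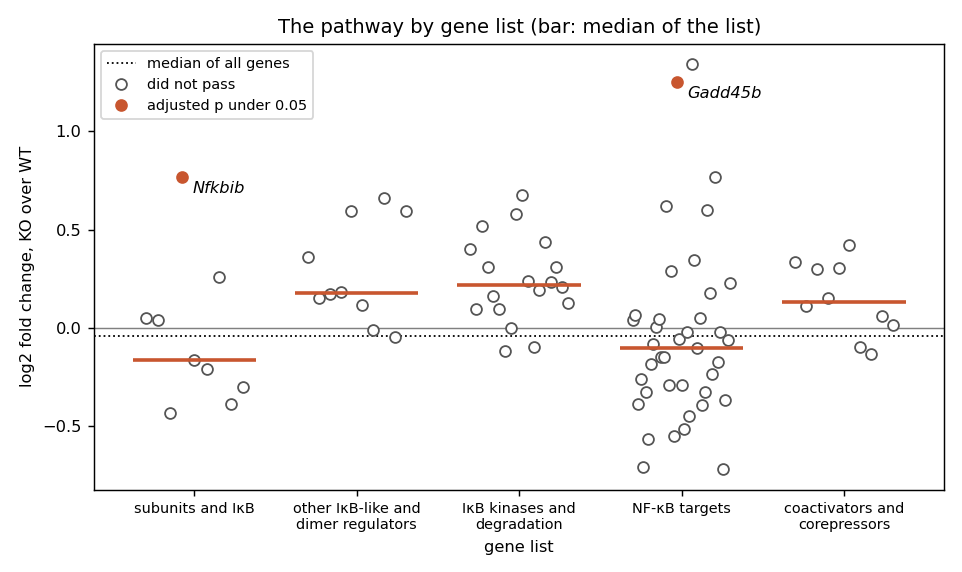
Log2 fold change of knockout over wild-type (vertical axis) for each measured gene of the 5 lists (horizontal axis); filled points passed limma, bars give the list's median and the dotted line the median of all genes (-0.04). The dotted line takes no account of signal, and the brightest group of genes had a median of 0.30. Nfkbib and Gadd45b are the filled points, and the open point near Gadd45b is Il6.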

How the data were processed

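One deposited table of the authors' log2 values, 6 arrays wide, was used. Per the submitters' processing notes it was made with RMA, Affymetrix Expression Console and Partek, with no versions stated there. Array medians differ (5.72 to 5.98), so the columns are not matched in distribution. Amplification of small amounts of RNA, per the labels' protocols, can change the range of signals. Its part in the differences between these arrays was not tested. The design text names an exon array, while the probe annotation used here is that of another Affymetrix mouse array. Of 35557 rows, 21789 carry 1 gene symbol, 1621 several and 12147 none. For a gene with several rows the brightest was kept. All 9 gene identifiers were found in RefSeq (GRCm38.p6).

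Genotypes were compared by a linear model of group alone over all 6 arrays, fitted with limma 3.58.1 under R 4.3.3. The model was tested on simulated data. Same-numbered arrays deviated together (r = 0.368, 0.119 and 0.162, above the minimum of 0.1), so the number was also used as a block. Wild-type 2 with knockout 3 (0.195) and wild-type 3 with knockout 2 (0.183) correlated as strongly. The labels do not say what a number marks. The genes and lists were chosen with earlier results of these data known. Named genes are all measured subunits and inhibitors, and the 3 genes most like Rela and Nfkbia. Of the pathway lists, those that passed are named (up to 6, or the 2 with the smallest p where none did). The other listed parts of the ligase are named beside Rbx1 and Cul1. Of the gate and cell type lists, genes that passed are named with a choice of others, set by no rule. Olfactory receptor genes as a guide to background, and Il6, were added after the values were seen. Alternatives were the block, normalization, centring, filtering, variance models, array weights, row choice and leaving out each array.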

Additional observations from a re-analysis of the deposited data

How the results depend on the processing

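The number of genes that passed over the whole table was 163. It was 372 with the replicate block, 104 after quantile normalization, 314 with arrays centred on their medians, 525 without genes below the median level, 1599 with array weights and 22 when all rows were tested. Leaving out 1 array gave 21 to 929. Higher genes made up 84.0% of calls, 68.0% after cyclic loess normalization (149 higher, 70 lower) and 91.7% with centring. Of the 9 NF-κB and IκB genes 1 passed, and 0 after quantile normalization, 3 with array weights, 0 when all rows were tested and 0 to 3 on leaving out 1 array. With cyclic loess normalization 1 passed, Rela in place of Nfkbib. The replicate block changed no call among the 9. Signs turned for 3 genes, all without a call. Bcl3 turned to -0.10 (quantile), -0.21 (cyclic loess) and -0.27 (array weights), with -0.33 to 0.25 on leaving out 1 array. Nfkb2 turned to -0.037 (cyclic loess) and -0.043 (array weights), with -0.069 to 0.10 on leaving out 1 array. Rel ran from -0.0026 to 0.41. The cause of these shifts was not tested, beyond fewer arrays or more rows tested. The number of arrays limits precision, and Relb was not shown above background.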
